A study of Mus musculus with 6 samples.

Results

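Complex I, the NADH:ubiquinone oxidoreductase of the inner mitochondrial membrane, is assembled from subunits of the nuclear and of the mitochondrial genome. The genes described here are 36 nuclear genes of its subunits, chosen by symbol from the 52550 genes of the deposited table: Ndufa1 to Ndufa13, Ndufab1, Ndufb2 to Ndufb11, Ndufc1, Ndufc2, Ndufs1, Ndufs3 to Ndufs8 and Ndufv1 to Ndufv3. They are not all of the nuclear subunits. Ndufa4 is now assigned to complex IV but is counted among the 36 throughout. Each symbol stood for 1 gene, and all 36 passed the minimum for testing, an average of 1 FPKM or more across the 6 libraries (fragments per length of transcript and per mapped total of the library). RNA was taken from the left ventricle of 12-month-old mice of strain C57BL/6J. The 3 control libraries carry the genotype wild-type (WT), and the other 3 carry a genotype of PGC-1α overexpression (PKI). PGC-1α is a coactivator of genes for mitochondrial biogenesis. The sources used here do not give how the overexpression was made or in which cells. The labels number the samples without saying that each is a separate animal, so each p reflects no more than sample-to-sample spread, part of which could be technical.

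Ppargc1a, the gene of PGC-1α, was at 14.2, 12.8 and 12.4 FPKM in WT libraries and at 11.6, 11.8 and 11.4 in PKI-labelled libraries, so the overexpression that the labels state was not seen in these values. All directions below are therefore those of libraries carrying the PKI label against those carrying the WT label. Library depth is unknown, because FPKM hold no counts. The FPKM outside the mitochondrial genes and 11 nuclear copies of them summed to between 135248 and 135500 in WT and between 155362 and 158241 in PKI-labelled libraries, 1.16-fold more, and the median log2 change of all 9907 tested genes was 0.21. Those mitochondrial genes and copies held 82.38%, 81.9% and 81.93% of the FPKM total in WT and 78.06%, 78.06% and 78.29% in PKI-labelled libraries. Nuclear and mitochondrial values are parts of the same total, so their shifts are not separate observations. Results are therefore given as deposited and after scaling, that is after dividing each library by its median-of-ratios size factor (0.898 to 0.922 in WT, 1.10 to 1.13 in PKI-labelled libraries), which brought the median of all tested genes to −0.02.

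In complex I, a matrix arm takes electrons from NADH through a flavin and a chain of iron-sulphur clusters to ubiquinone, and a membrane arm uses the energy released to pump protons. Core subunits carry the catalytic steps: those of the matrix arm are nuclear genes, and the 7 of the membrane arm are the mitochondrial mt-Nd genes. Accessory subunits surround this core and are needed for assembly and stability. Heart muscle, which works on oxidative metabolism, is rich in the complex.

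As deposited, the nuclear complex I subunits differed little between the groups. Their median log2 change was 0.06 (range −0.23 to 0.38), against 0.21 for all tested genes (interquartile range 0.07 to 0.35), and 23 of 36 lay between −0.1 and 0.1. Ndufb3 and Ndufb6, accessory subunits of the membrane arm, rose, Ndufs1, the largest core subunit, fell, and 33 did not pass the test (limma, adjusted p under 0.05). Among all tested genes 36.4% were called higher and 2.96% lower, 39.4% in all. At an unadjusted p under 0.05 there were 6 members: these 3, Ndufa6, Ndufs5 and Ndufb9. At least 39.4% of all tested genes passed this looser threshold, since an unadjusted p is never above its adjusted p. Leaving out 1 library at a time gave between 0 and 4 members called higher and between 0 and 1 called lower, with no call at all without PKI replicate 3.

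After scaling, the same genes lay lower: the median log2 change of the members was −0.24, 35 of 36 were below 0, 14 were called lower and 0 higher (limma). The background after scaling was 9.18% called lower and 7.82% higher. The only member above 0 was Ndufc1, at 0.09 (unadjusted p = 0.620). The 14 were Ndufs1, Ndufs7, Ndufv1 and Ndufs8 of the core and Ndufs4, Ndufs6, Ndufv3, Ndufa5, Ndufa10, Ndufa13, Ndufb8, Ndufb9, Ndufab1 and Ndufa4. This count was 15 without WT replicate 1 and 3 without any one of the other 5 libraries, and Ndufs1 was called in each of these 6 fits. Scaling to the nuclear FPKM total gave 4 lower (Ndufs7, Ndufs1, Ndufv1 and Ndufa4) and 0 higher, with a background of 6.13% lower and 10.2% higher and a median over members of −0.15 against 0.04 for all tested genes.

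Each scaling divides a library by a single factor, which shifts nearly all log2 changes together. The place of the members among all genes was therefore bound to move less than their direction. As deposited 32 of 36 lay below the median change of all tested genes, and 34 did after either scaling. The count was 19 when all 24705 genes above 0 in any library were kept, whose median change was 0.06. As deposited, the library values of the 2 groups overlapped for 29 members. All 3 PKI-labelled libraries lay above all WT libraries for 6 members (51.3% of all tested genes did) and below for 1 (4.53%). After scaling they lay below for 26 members (20.7%) and above for 0 (16.6%).

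**Figure D1:**
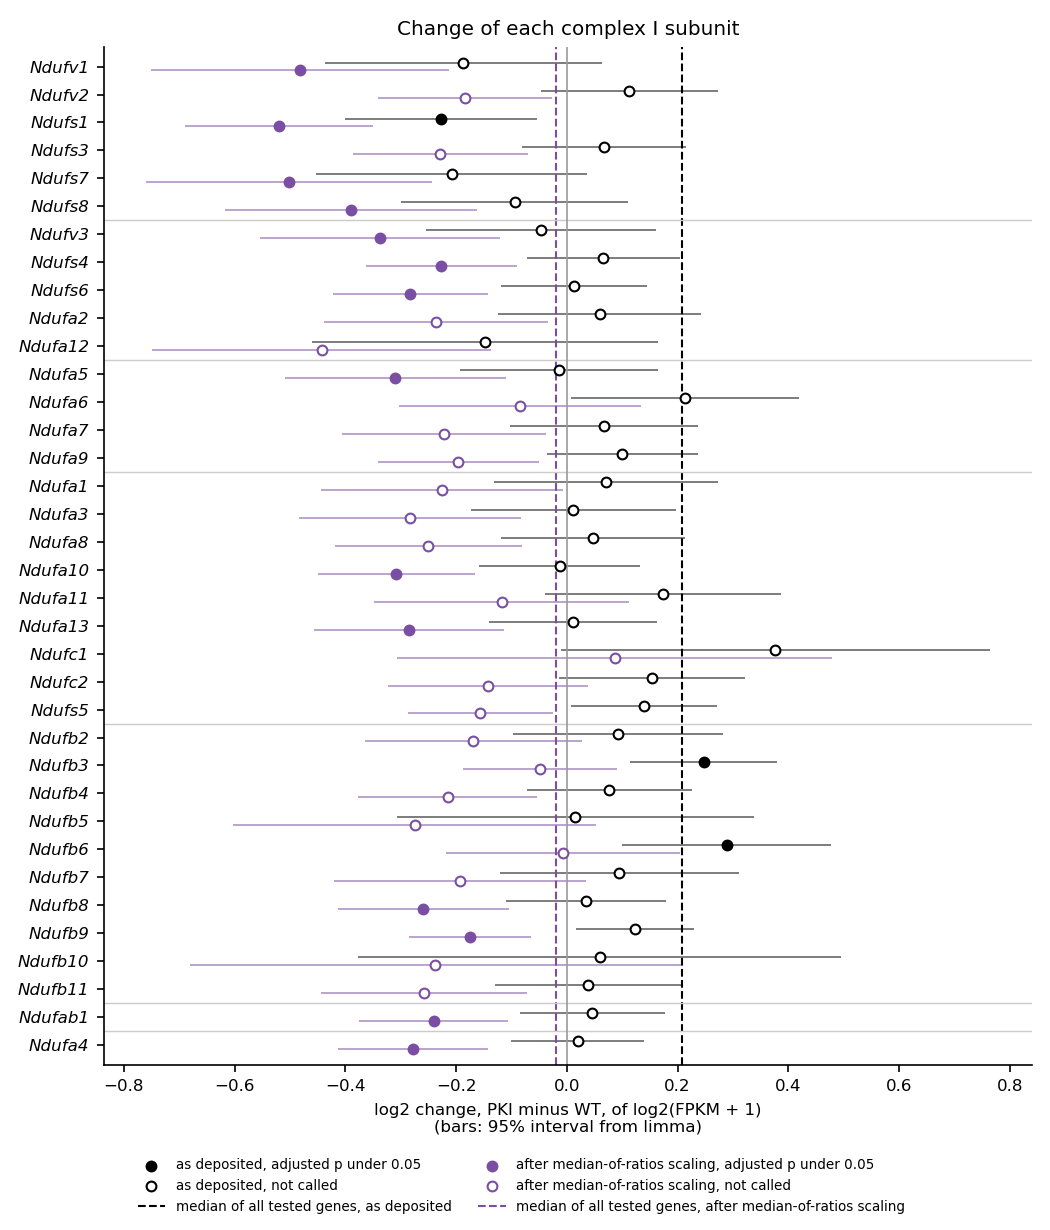
Log2 change of each nuclear complex I subunit (PKI-labelled libraries minus WT, on log2(FPKM + 1), with 95% intervals), as deposited and after median-of-ratios scaling, ordered by role. As deposited the members spread around their median of 0.06, and after scaling 35 of 36 lie below 0.

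The promoters of the subunits were read as 250 bases before the annotated start, from RefSeq on GRCm38.p6, for the 33 members with an entry (35 windows). A few letters were searched on both strands: GCATGCGC of nuclear respiratory factor 1, AAGGTCA of the oestrogen-related receptors, CGGAAG of ETS factors such as GABP, ATGGCGG of YY1 and the CCAAT box. These are factors and elements known from promoters of respiratory chain genes. Of 35 member windows, 3 held the first (8.6%, against 2.26% of 32851 windows of all genes), 3 the second (8.6% against 4.08%), 7 the third (20.0% against 13.59%), 4 the fourth (11.4% against 2.21%) and 10 a CCAAT box (28.6% against 33.85%). The nuclear respiratory factor 1 letters were in Ndufa6, Ndufa8 and Ndufa11, the receptor letters in Ndufb2, Ndufb4 and Ndufs5, and the YY1 letters in Ndufa1, Ndufa5 and Ndufa7. In all, 21 genes held at least 1 of these motifs and 12 held none. The member windows had a median GC content of 57.6%, against 52.4% for all windows. The windows of the 2 subunits called higher as deposited, and of 2 core subunits called lower after scaling, are shown with matches in capitals, as the part of each window before the start of the gene in GENCODE M21, on the gene's strand.
Ndufb3, chr1:58586147-58586383, + strand: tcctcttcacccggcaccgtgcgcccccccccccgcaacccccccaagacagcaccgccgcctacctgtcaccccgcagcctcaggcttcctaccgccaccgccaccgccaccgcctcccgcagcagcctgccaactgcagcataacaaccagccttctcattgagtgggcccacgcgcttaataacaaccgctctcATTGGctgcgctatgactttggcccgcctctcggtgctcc
Ndufb6, chr4:40279422-40279671, - strand: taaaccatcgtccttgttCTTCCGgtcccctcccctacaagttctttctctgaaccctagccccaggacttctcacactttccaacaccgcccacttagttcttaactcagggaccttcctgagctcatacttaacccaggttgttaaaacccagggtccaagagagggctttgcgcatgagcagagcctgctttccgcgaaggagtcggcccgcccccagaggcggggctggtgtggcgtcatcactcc
Ndufv1, chr19:4012807-4013005, - strand: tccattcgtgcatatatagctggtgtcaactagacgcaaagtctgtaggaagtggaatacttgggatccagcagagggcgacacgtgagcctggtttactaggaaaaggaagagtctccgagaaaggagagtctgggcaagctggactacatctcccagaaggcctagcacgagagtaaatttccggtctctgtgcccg
Ndufs8, chr19:3912775-3913024, - strand: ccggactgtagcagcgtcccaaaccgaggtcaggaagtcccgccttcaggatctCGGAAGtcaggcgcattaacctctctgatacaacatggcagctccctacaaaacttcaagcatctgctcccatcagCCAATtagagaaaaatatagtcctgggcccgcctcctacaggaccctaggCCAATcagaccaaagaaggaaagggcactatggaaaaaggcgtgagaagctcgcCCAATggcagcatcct

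In the windows printed, Ndufb3 held 1 CCAAT box on the reverse strand and Ndufb6 held 1 ETS match on the reverse strand. Ndufv1 held no match, and Ndufs8 held 3 CCAAT boxes and 1 ETS match. These windows were chosen by results, and 33.85% of all windows held a CCAAT box and 13.59% the ETS letters. They therefore cannot tie a match to the direction of change. A match is a run of letters and not a measured binding site.

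The 6 core subunits of the matrix arm had the lowest median of all roles, −0.14 as deposited (1 called lower, 0 higher) and −0.44 after scaling (4 lower, 0 higher). Of all tested genes, 2.96% were called lower as deposited and 9.18% after scaling. Ndufs1, which holds iron-sulphur clusters of the NADH-oxidising end, lies on chromosome 1 from 63143596 to 63176833 on the minus strand (ENSMUSG00000025968, GRCm38). It stood at 58.7, 54.5 and 60.3 FPKM in the WT libraries and at 45.7, 52.9 and 49.3 in PKI-labelled libraries. It was the only member whose PKI-labelled libraries all lay below all WT libraries as deposited. The log2 change was −0.23 (SE 0.07, 95% interval −0.40 to −0.05, limma adjusted p = 0.0454). This call was lost in 5 of the 6 fits without 1 library and held only without PKI replicate 2. The scaled log2 change was −0.52 (SE 0.07, adjusted p = 0.00436), with adjusted p from 0.00939 to 0.0215 over the 6 fits without 1 library.

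Ndufv1, which binds NADH and the flavin, was at 75.1, 100.9 and 87.8 FPKM in WT and at 74.9, 74.5 and 80.5 in PKI-labelled libraries. WT replicate 1 lay within the range of the other group. The log2 change was −0.19 (SE 0.11, adjusted p = 0.190) as deposited and −0.48 (SE 0.11, adjusted p = 0.0293) after scaling. Ndufs7, which carries the last cluster before ubiquinone, was at 65.5, 75.2 and 67.3 FPKM in WT and at 67.9, 52.3 and 60.2 in PKI-labelled libraries. The groups overlapped through PKI replicate 1, and the log2 change was −0.21 (SE 0.10, adjusted p = 0.145) as deposited and −0.50 (SE 0.11, adjusted p = 0.0218) after scaling. Ndufs8, which carries a pair of clusters, was at 78.7, 94.6 and 95.05 FPKM in WT and at 86.1, 78.7 and 85.7 in PKI-labelled libraries. Here WT replicate 1 was as low as the lowest of the other group, with log2 changes of −0.09 (SE 0.09, adjusted p = 0.405) as deposited and −0.39 (SE 0.10, adjusted p = 0.0341) after scaling. The scaled calls of Ndufv1 and Ndufs8 were lost without any one library other than WT replicate 1, and that of Ndufs7 without WT replicate 2, WT replicate 3 or PKI replicate 3. As deposited, Ndufv1 was called lower without WT replicate 1 (log2 −0.29).

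The other two core subunits lay on the opposite side of 0 as deposited. Ndufv2, a cluster protein next to Ndufv1, was at 141.7, 139.7 and 122.7 FPKM in WT and at 144.7, 143.1 and 148.5 in PKI-labelled libraries. All 3 of the latter were higher as deposited and all 3 lower after scaling, with log2 changes of 0.11 (adjusted p = 0.214) and −0.18 (adjusted p = 0.108). Ndufs3, a scaffold of the ubiquinone-binding part, was at 78.4, 83.5 and 82.0 FPKM in WT and at 91.1, 81.8 and 82.9 in PKI-labelled libraries. Its groups overlapped, and the log2 change of 0.07 turned to −0.23 after scaling (adjusted p = 0.414 and 0.0592).

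A share within a library does not depend on the scaling. The 6 core genes made up 15.0%, 15.4% and 15.2% of the summed FPKM of the 36 members in WT libraries and 13.6%, 14.2% and 14.2% in PKI-labelled libraries. The groups did not overlap. The ratio of Ndufs1 to Ndufb3, a pair chosen after their values were seen, was 0.616, 0.568 and 0.651 in WT and 0.388, 0.492 and 0.439 in PKI-labelled libraries. No test is given for these shares and ratios, since the genes were chosen with results known.

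The members were also compared with one another, by dividing each library by its median ratio over the 36. On this scale 0 members were called in either direction (limma), while 18.8% of all tested genes were called higher and 2.88% lower. At an unadjusted p under 0.05, which at least these shares of all tested genes passed, there were 5 members. These were the core subunits Ndufs7 (log2 −0.27, adjusted p = 0.0544), Ndufs1 (−0.29, 0.0832) and Ndufv1 (−0.25, 0.106), below the other members, and Ndufb6 (0.22, 0.0704) and Ndufb3 (0.18, 0.0803), above them. The uneven change within the complex therefore did not pass the adjusted threshold for any single gene.

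The 5 accessory subunits of the NADH end had a median log2 change of 0.01 as deposited, with 0 called (smallest adjusted p 0.387, 0 at an unadjusted p under 0.05). After scaling it was −0.28 with 3 called lower, beside 9.18% of all tested genes. Ndufs6, a zinc-binding subunit needed late in assembly, was at 110.2, 119.8 and 110.1 FPKM in WT and at 115.7, 112.7 and 114.7 in PKI-labelled libraries. These 6 values lay within one narrow range, with a log2 change of 0.01 that turned to −0.28 after scaling (adjusted p = 0.856 and 0.0193). Ndufv3, a small subunit at the flavin end, was at 31.0, 38.5 and 33.3 FPKM in WT and at 34.7, 32.4 and 32.0 in PKI-labelled libraries. WT replicate 2 lay above and WT replicate 1 below all other libraries. The log2 change of Ndufv3 was −0.05 as deposited and −0.34 after scaling (adjusted p = 0.681 and 0.0472). Ndufs4, whose loss in mice and people disturbs the complex, was at 47.7 ± 2.07 FPKM in the WT libraries and 49.98 ± 1.20 in PKI-labelled libraries (SD, n = 3 each). Its log2 change was 0.07 as deposited and −0.23 after scaling (adjusted p = 0.387 and 0.0373). Ndufa12 was at 94.1, 94.8 and 67.4 FPKM in WT and at 79.8, 72.0 and 76.8 in PKI-labelled libraries, so that WT replicate 3 alone made the groups overlap. Its log2 change was −0.15 (adjusted p = 0.393) with all libraries and −0.31, called lower, without WT replicate 3. With the FPKM of its pseudogene copy Gm15920 added, the change over all libraries was −0.04. Ndufa2, the last of the 5, was at 98.7 ± 7.13 and 102.9 ± 7.04 FPKM.

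The 4 accessory subunits around the ubiquinone site had a median of 0.08 as deposited, with 0 called (Ndufa6 at an unadjusted p of 0.0445). After scaling it was −0.21 with 1 called lower, beside 9.18% of all tested genes. Ndufa6, a subunit of the LYR family that holds the acyl carrier protein, was at 190.1, 185.8 and 184.4 FPKM in WT and at 241.4, 190.1 and 221.3 in PKI-labelled libraries. The groups touched, with PKI replicate 2 only just above WT replicate 1, and the log2 change was 0.21 (SE 0.09, adjusted p = 0.0892). Without PKI replicate 2 it was 0.31 and was called higher, and after scaling of all libraries it was −0.08 (adjusted p = 0.588). The other members of this role were Ndufa5 (log2 −0.01, −0.31 after scaling, adjusted p = 0.0473), Ndufa7 (0.07 and −0.22) and Ndufa9 (0.10 and −0.20).

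The 9 subunits of the proximal membrane arm, next to the matrix arm, had a median of 0.07 as deposited with 0 called (Ndufs5 at an unadjusted p of 0.0419). After scaling it was −0.23 with 2 called lower, beside 9.18% of all tested genes. Ndufc1 had the highest log2 change of all members, 0.38 (SE 0.16, adjusted p = 0.105). It was at 28.6, 37.7 and 24.99 FPKM in WT and at 46.0, 34.0 and 38.5 in PKI-labelled libraries, a wide spread in which WT replicate 2 overlapped the other group. It was called higher without WT replicate 2 (log2 0.54). Ndufs5, an accessory subunit on the intermembrane side, was at 76.5, 79.0 and 77.8 FPKM in WT and at 82.7, 90.1 and 84.5 in PKI-labelled libraries. The groups did not overlap, in opposite directions as deposited (log2 0.14, adjusted p = 0.0854) and after scaling (−0.16, adjusted p = 0.103). Ndufa10, a subunit related to nucleoside kinases, was at 93.4, 93.5 and 83.7 FPKM in WT and at 88.5, 88.9 and 90.4 in PKI-labelled libraries. Its log2 change was −0.01 as deposited and −0.31 after scaling (adjusted p = 0.880 and 0.0152), and of the 6 scaled fits without 1 library, only that without PKI replicate 1 lost the call. Of the rest, Ndufa13 had log2 changes of 0.01 and −0.29 (adjusted p = 0.0373 after scaling), and Ndufa1, Ndufa3, Ndufa8, Ndufa11 and Ndufc2 ran from 0.01 (Ndufa3) to 0.17 (Ndufa11) as deposited, none of them called on either scale with all libraries (Ndufa11 was called higher as deposited without PKI replicate 2).

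The 10 subunits of the distal membrane arm, the end that holds the last proton pumps, all had a log2 change above 0 as deposited. Their median was 0.08, with 2 called higher and 0 lower, beside 36.4% and 2.96% of all tested genes. Of the 10, 8 lay below the median of all tested genes, 0.21. After scaling the median of the 10 was −0.20, with 0 called higher and 2 lower, beside 7.82% and 9.18% of all tested genes. Ndufb3 (ENSMUSG00000026032, chromosome 1 from 58586384 to 58595964, plus strand, GRCm38), a small subunit of this arm, was at 95.2, 96.1 and 92.5 FPKM in WT and at 118.0, 107.5 and 112.3 in PKI-labelled libraries. Its groups were well apart, with a log2 change of 0.25 (SE 0.06, 95% interval 0.11 to 0.38, adjusted p = 0.0152). Ndufb6 (chromosome 4 from 40270591 to 40279421, minus strand), another accessory subunit of this arm, was at 67.3, 77.2 and 80.6 FPKM in WT and at 94.4, 86.8 and 94.0 in PKI-labelled libraries. All 3 PKI-labelled libraries were above all WT libraries, with a log2 change of 0.29 (SE 0.08, 95% interval 0.10 to 0.48, adjusted p = 0.0282). After scaling the changes were −0.05 and −0.01 (adjusted p = 0.631 and 0.970), close to that of all tested genes, and scaling to the nuclear total gave 0.03 and 0.08. The call of Ndufb3 was lost without WT replicate 3 or PKI replicate 3, and that of Ndufb6 without WT replicate 2, PKI replicate 1 or PKI replicate 3.

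Ndufb9, a subunit of the LYR family, had the highest level of all members, at 427.8, 410.3 and 412.8 FPKM in the WT libraries and 463.9, 447.5 and 451.2 in PKI-labelled libraries. The groups did not overlap as deposited (log2 0.12, SE 0.05, adjusted p = 0.0646), nor after scaling, where the direction was the opposite (−0.17, adjusted p = 0.0433). Ndufb8 was at 61.7 ± 1.26 and 63.3 ± 3.70 FPKM (SD, n = 3 each), with a log2 change of 0.03 that was −0.26 after scaling (adjusted p = 0.0361). Ndufb10 was the most erratic member, at 135.5, 189.7 and 137.1 FPKM in WT and at 204.0, 137.3 and 142.4 in PKI-labelled libraries, with 1 high library in each group and a log2 change of 0.06 (SE 0.19). The other 5, Ndufb2, Ndufb4, Ndufb5, Ndufb7 and Ndufb11, had log2 changes from 0.02 (Ndufb5) to 0.10 (Ndufb7) as deposited, and none was called on either scale.

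Ndufab1, the mitochondrial acyl carrier protein, sits in both arms and also serves mitochondrial fatty acid synthesis. It was at 23.5 ± 0.302 FPKM in the WT libraries and 24.3 ± 0.626 in PKI-labelled libraries (SD, n = 3 each), with log2 changes of 0.05 as deposited and −0.24 after scaling (adjusted p = 0.523 and 0.0295). Ndufa4 was named as a complex I subunit and is now assigned to complex IV. It was at 174.8, 179.6 and 185.6 FPKM in WT and at 178.1, 181.8 and 187.5 in PKI-labelled libraries, a close match between groups. Its log2 change was 0.02 as deposited, −0.28 after scaling and −0.19 after scaling to the nuclear total (adjusted p = 0.769, 0.0184 and 0.0442).

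**Figure D2:**
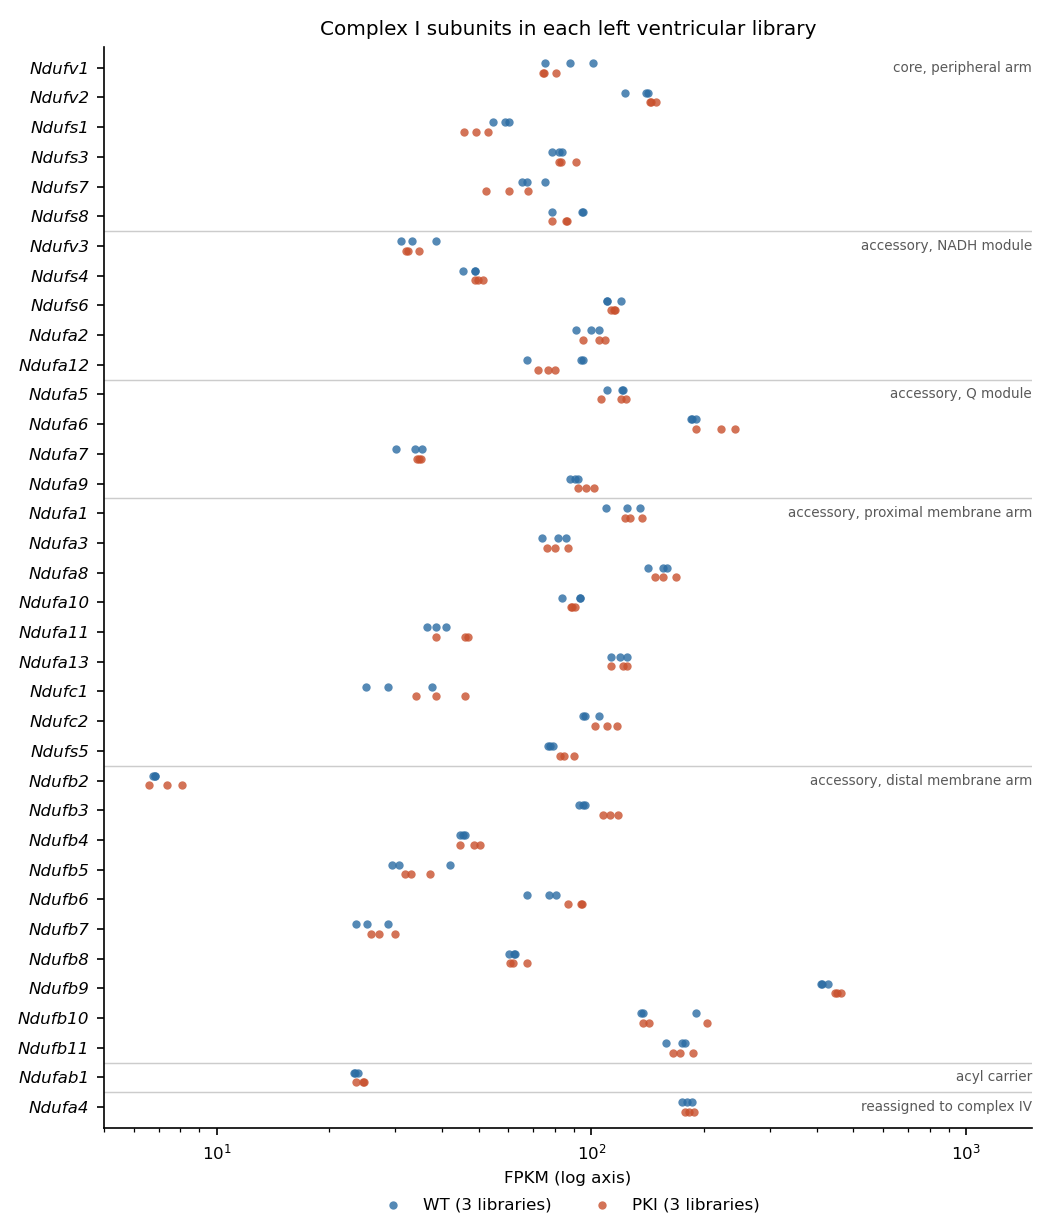
FPKM of the 36 nuclear complex I subunits in each of the 6 libraries, on a log axis, ordered by role. Levels run from a mean of 7.09 (Ndufb2) to 435.6 (Ndufb9), and the WT libraries and the PKI-labelled libraries overlap for 29 of 36 members.

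The members differed far more from one another than between the groups. Over the 6 libraries, mean levels ran from 7.09 FPKM (Ndufb2) to 435.6 (Ndufb9), 61.5-fold, with a median of 83.3, and the median member lay at the 97.1th percentile of the tested genes. Ndufa6 (202.2) and Ndufa4 (181.2) followed Ndufb9, and Ndufab1 (23.9) and Ndufb7 (26.7) followed Ndufb2 at the low end. There were 24 members between 50 and 200 FPKM, 2 above and 10 below. Subunits of 1 complex thus did not have equal FPKM. Ndufb2 and Ndufab1 have the longest annotated transcripts of the set (4371 and 3479 bases), and the sources used here do not give the length behind these FPKM. Across the 36 genes, Spearman's rho between annotated length and log2 change was −0.328 (−0.027 over 9894 tested genes), and between mean level and log2 change 0.074, given as descriptions of genes that share the same libraries.

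The spread between libraries of a group was small for most members, with a median coefficient of variation of 5.79% in WT and 5.65% (n = 3 each) in PKI-labelled libraries, but it was shared between genes. PKI replicate 1 was the highest of its group for 29 of 36 members and PKI replicate 2 the lowest for 28. In WT, replicate 2 was the highest for 21 and replicate 1 the lowest for 22. The members are therefore not independent readings of a difference between the groups. The summed FPKM of the 36 was 3323, 3554 and 3399 in WT and 3759, 3410 and 3567 in PKI-labelled libraries, with overlap.

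Some members share sequence with other genes, and how reads were divided among them is not given. Near-identical processed pseudogenes (at least 95% identity over at least 200 bases) were listed at substantial levels for 5 members. Gm15920, the copy of Ndufa12, was at a mean of 38.8 FPKM, Gm4459 and Ndufab1-ps, copies of Ndufab1, at 16.2 and 5.03, BC002163, the copy of Ndufs5, at 21.5, and Gm12251, the copy of Ndufs3, at 13.2. The copy of Ndufb4, Gm3244 in the table, was at 63.5 FPKM, above Ndufb4 itself at 46.6. The copy of Ndufb3 was at 0.423. Ndufb6 overlaps the coding gene Smim27 (1.51 FPKM), and without strand their shared reads cannot be told apart. Adding the copies to their subunits changed no call with all libraries, but it moved the log2 change of Ndufa12 from −0.15 to −0.04 (adjusted p = 0.797).

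The 7 mitochondrial core subunits all fell as deposited (7 of 7 called lower, median log2 −0.21) and after scaling (7 of 7, median −0.51), on a background of 2.96% and 9.18% called lower. Mt-Nd1 was at 38460, 38355 and 37270 FPKM in WT and at 32493, 32459 and 33151 in PKI-labelled libraries, with no overlap. Log2 changes ran from −0.11 (mt-Nd3) to −0.29 (mt-Nd5). The ratio of their summed FPKM to that of the 36 nuclear members was 51.1, 48.4 and 49.8 in WT and 39.3, 43.3 and 42.0 in PKI-labelled libraries, again with no overlap. Nuclear copies of these genes are listed at similar levels, so their values are uncertain. The mitochondrial share of the FPKM total was lower in every PKI-labelled library, as given above. Whether the mt-Nd genes fell beyond that common shift was not tested.

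**Figure D3:**
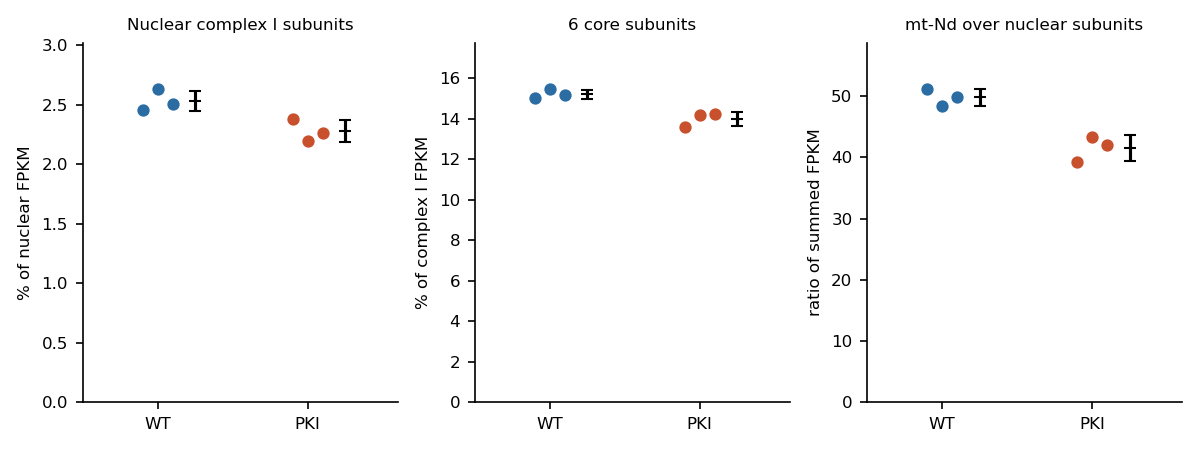
Each point is 1 library, with the mean and SD of each group of 3 beside the points. The share of the 36 nuclear subunits in the nuclear FPKM total was 2.46%, 2.63% and 2.51% in WT and 2.38%, 2.19% and 2.26% in PKI-labelled libraries; the share of the 6 core genes and the ratio of mt-Nd genes to nuclear subunits were lower in all 3 PKI-labelled libraries.

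As a share of the nuclear FPKM total, the 36 genes made up 2.53% ± 0.0875 in WT and 2.28% ± 0.0912 in PKI-labelled libraries (SD, n = 3 each), without overlap. The nuclear total itself was higher in the latter, while the members' own sum overlapped. Relative to complexes II to V, the sum of the 36 was 0.388, 0.387 and 0.361 in WT and 0.416, 0.397 and 0.397 in PKI-labelled libraries. The 36 genes thus made up slightly more against the listed genes of complexes II to V in each library labelled PKI. Ndufa4, now assigned to complex IV, was counted with the 36 in this ratio.

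Complexes II to V, the rest of oxidative phosphorylation, had a median log2 change of 0.00 over 41 nuclear genes as deposited (4 called higher, 5 lower) and −0.30 after scaling (0 and 19), beside 0.06 and −0.24 for the 36 subunits of complex I. Among all tested genes 36.4% were called higher and 2.96% lower as deposited, and 7.82% and 9.18% after scaling. By complex, the median was −0.07 for II, 0.00 for III, 0.01 for IV and 0.00 for V as deposited, and −0.36, −0.29, −0.29 and −0.30 after scaling. The 5 called lower as deposited were Sdha of complex II (log2 −0.30, adjusted p = 0.0047), Uqcrc1 of complex III (−0.29, 0.0148), Cox7a1 of complex IV (−0.27, 0.0275) and Atp5b and Atp5a1 of complex V (−0.18, 0.0172 and −0.14, 0.0288). The highest included Cox6a1 and Cox8a of complex IV (0.59 and 0.52, adjusted p = 0.0130 and 0.0072), which were not called after scaling (0.30 and 0.23, adjusted p = 0.186 and 0.191). The difference between complex I and these complexes was not tested.

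**Figure D4:**
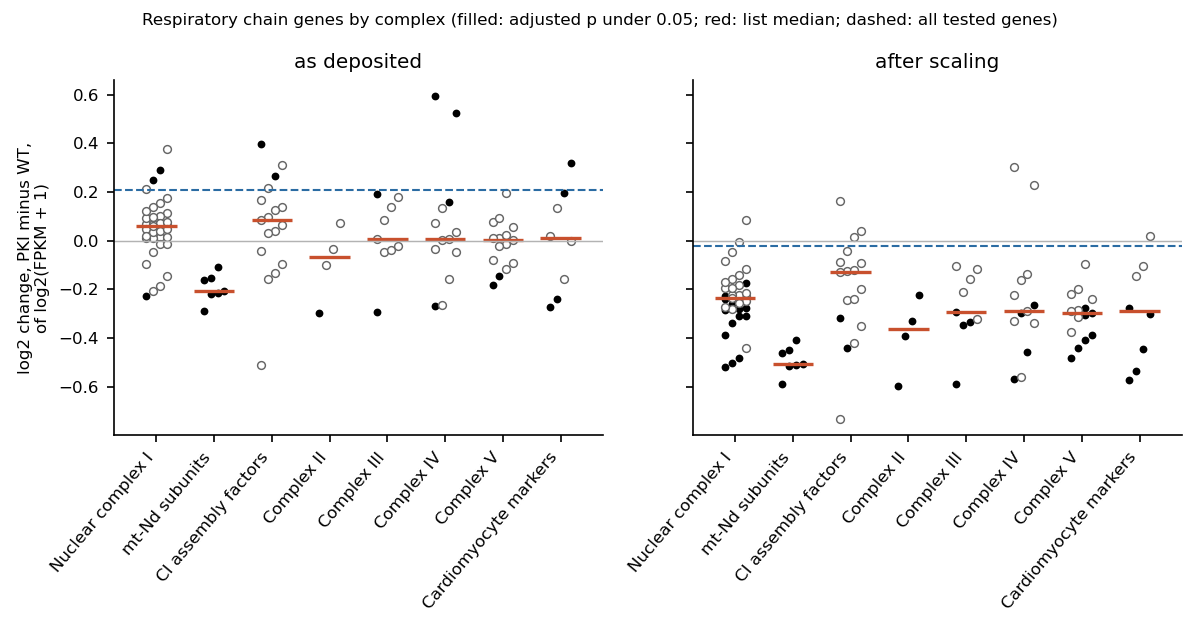
Log2 change (PKI-labelled libraries minus WT, as deposited and after scaling) of single genes of complex I, of the mt-Nd genes, of the assembly factors, of complexes II to V and of the cardiomyocyte markers. Filled points passed an adjusted p under 0.05, red bars are list medians and the dashed line is the median of all tested genes. Medians of complexes I to V lie between −0.07 and 0.06 as deposited, below the 0.21 of all tested genes.

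Assembly factors build the complex from its modules and are not part of the finished enzyme. Of 18 listed, 17 were tested: 2 rose as deposited and 0 fell (limma; 5 had an unadjusted p under 0.05, all higher), with a median of 0.08. Among all tested genes 36.4% were called higher and 2.96% lower, with a median of 0.21. At least 36.4% were therefore higher at that unadjusted threshold. After scaling 0 assembly factors were called higher and 2 lower, with a median of −0.13, beside 7.82% and 9.18% of all tested genes. Ndufaf2, an assembly factor of the NADH end, was at 3.10 ± 0.171 FPKM in the WT libraries and 4.41 ± 0.314 in PKI-labelled libraries (SD, n = 3 each), 1.42-fold (log2 0.40, adjusted p = 0.0079; 0.16 and 0.171 after scaling). Ndufaf3 rose 1.25-fold (log2 0.27, adjusted p = 0.0463; 0.01 and 0.937 after scaling), and Ndufaf5 was at log2 0.22 (adjusted p = 0.0527). The 2 called lower after scaling were Ecsit (log2 −0.44, adjusted p = 0.0102) and Timmdc1 (−0.32, 0.0159).

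Of 10 regulators known for respiratory chain genes, 7 were tested and 0 were called as deposited (limma; Yy1 and Ppargc1a had an unadjusted p of 0.0249 and 0.0496). Yy1 was at log2 0.21 (adjusted p = 0.0588), Ppargc1a at −0.16 (0.0967) and Esrra, the oestrogen-related receptor alpha gene, at 0.13 (0.227). After scaling 3 were called lower, beside 9.18% of all tested genes: Ppargc1a (−0.44, adjusted p = 0.0052), Gabpa (−0.32, 0.0486) and Tfam (−0.31, 0.0218). Nrf1, Gabpb1 and Pprc1 had means under 1 FPKM and were not tested.

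Markers of some other cell types differed between the groups. In bulk tissue, fewer cells of a type and less RNA per cell cannot be told apart. Of 8 cardiomyocyte markers, the cells that hold most mitochondria of the ventricle, 2 were called higher and 2 lower as deposited (median 0.01) and 5 lower after scaling (median −0.29), close to the medians of the 36 subunits. The shares over all tested genes were 36.4% higher and 2.96% lower as deposited, and 9.18% lower after scaling. The summed FPKM of the 8 markers ran from 7242 to 7930 in WT and from 7920 to 8747 in PKI-labelled libraries, and the sum of the 36 relative to it was 0.422, 0.448 and 0.469 in WT and 0.430, 0.431 and 0.415 in PKI-labelled libraries, with overlap. This ratio rests largely on Actc1, the highest of the 8 (mean 3691 FPKM in WT, 4599 in PKI-labelled libraries). Actc1 was called higher as deposited (limma, log2 0.32, adjusted p = 0.0122). Tnni3 and Pln were the 2 called lower (−0.275, 0.00915 and −0.24, 0.0127).

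As deposited, fibroblast markers were higher in 5 of 6 (summed FPKM 78.6 to 113.4 in WT, 196.0 to 237.4 in PKI-labelled libraries), macrophage markers in 6 of 6 (62.5 to 99.3 and 193.4 to 210.4), smooth muscle markers in 2 of 3 (34.1 to 51.4 and 66.0 to 109.3) and endothelial markers in 1 of 5 (59.4 to 63.9 and 64.8 to 71.9), beside 36.4% of all tested genes. After scaling 5 of 6 fibroblast, 5 of 6 macrophage and 1 of 3 smooth muscle markers were called higher, beside 7.82% of all tested genes. The endothelial median turned from 0.19 to −0.08, with 0 of 5 higher and 1 lower (Kdr, log2 −0.34, adjusted p = 0.0313). Erythroid markers were lower in 3 of 3 on both scales (239.3 to 348.2 and 171.6 to 216.5), beside 2.96% of all tested genes as deposited and 9.18% after scaling. Atrial markers, 0 of 3 called as deposited (limma; Sln at an unadjusted p of 0.0331), summed to 107.1, 60.2 and 135.1 FPKM in WT and to 10.07, 19.9 and 114.5 in PKI-labelled libraries. Neither of 2 adipocyte markers reached the minimum for testing (summed FPKM 0.137 to 0.810 and 0.0851 to 1.49). None of these markers was at 0 in any library, and their part in the values of the complex I subunits was not tested.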

How the data were processed

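Left ventricular RNA was sequenced in 6 libraries. Per the labels' protocols, flash-frozen hearts were extracted with Trizol and 1 microgram of total RNA per sample was made into a library with an Illumina TruSeq kit that leaves strand unmarked. The deposited values are FPKM per gene and library, as the table of the authors is named. CASAVA, Bowtie 0.12.2 and build mm9 are listed in the submitters' processing notes with no role or order. The sources used here do not give the program behind the FPKM, its annotation or its filters. Depth is unknown.

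Groups came from the sample titles. The 36 members and the gene lists were chosen with earlier results of these data known. The 9907 genes with a mean of 1 FPKM or more were fitted on log2(FPKM + 1), which understates the change of low genes, with limma 3.58.1 in R 4.3.3 (variance trend, two-sided, no block). P-values were Benjamini-Hochberg adjusted over all 9907. The fit was also run on simulated data with set changes larger than those of the 36 members and no shift shared by a library. That run therefore does not bear on changes as small as those of the members. Library values were given for the core subunits, the up to 6 members with the smallest p in each direction before and after scaling, and the highest and lowest change; in other lists, the mt-Nd genes, Ppargc1a and up to 3 genes by p. Ndufb10, Ecsit, Timmdc1, Gabpa, Tfam, Kdr and other members given as means were named after their values were seen.

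Alternatives were 2 scalings, pseudocounts of 0.1 and 0.5, no minimum, a minimum mean of 5 FPKM, no variance trend, a block by replicate number and omitting each library in turn. Scaling to the 36 members, summing pseudogene copies and leaving out libraries after scaling were added after seeing the data. Positions are those of GENCODE M21 (GRCm38), found through the Ensembl identifier (99.72% matched), and none was converted from mm9.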

Additional observations from a re-analysis of the deposited data

How the results depend on the processing

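Which subunits were called depended on the scaling. Median-of-ratios scaling gave 0 members higher and 14 lower (1684 of all tested genes called), scaling to the nuclear total 0 and 4 (1613), and scaling to the 36 members 0 and 0. The median over members turned to −0.24 and −0.15 under the first 2. Of all 36 members, 28 lay above 0 as deposited. Only 1 did after median-of-ratios scaling, 3 after scaling to the nuclear total and 17 after scaling to the members. The reversals listed next are only those among the subunits whose library values were given by rule. Under median-of-ratios scaling the direction reversed for Ndufa4 (−0.28), Ndufa6 (−0.085), Ndufb3 (−0.048), Ndufb6 (−0.0064), Ndufb9 (−0.17), Ndufs3 (−0.23), Ndufs5 (−0.16), Ndufs6 (−0.28) and Ndufv2 (−0.18). Of these subunits, scaling to the nuclear total reversed Ndufa4 (−0.19), Ndufa6 (−0.0012), Ndufb9 (−0.091), Ndufs3 (−0.15), Ndufs5 (−0.074), Ndufs6 (−0.20) and Ndufv2 (−0.10). Scaling to the members reversed Ndufa4 (−0.046) and Ndufs6 (−0.052). The cause of these shifts was not tested, beyond the scaling itself.

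Pseudocounts of 0.1 and 0.5 and summing copies (Ndufa12 at −0.044 in place of −0.15) gave the 3 calls as deposited, as did a minimum mean of 5 FPKM (1925 of all genes called, with fewer tested). With no minimum, 1 member was called higher and 0 lower, and 19 lay below the median of all genes. Without a variance trend 2 were higher and 0 lower.

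With a replicate block, 1 member was higher (Ndufb3) and 0 lower, and after scaling 2 were lower rather than 14 (Ndufs1 and Ndufa4). The numbers are only shared names: deviations of same-numbered libraries from their group means correlated at −0.104, 0.001 and 0.053, and not every library correlated best with its own number.

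Without 1 library, 2344 (without WT replicate 3) to 3425 of all genes were called, between 0 and 4 members higher and between 0 and 1 lower. Among the subunits named by rule, the log2 change ran from −0.065 to 0.014 for Ndufa10, −0.0013 to 0.042 for Ndufa4, −0.0068 to 0.054 for Ndufs6 and −0.11 to 0.037 for Ndufv3. The direction of these 4 was thus not settled. The values hold no counts, so what depth limits is unknown.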
